A study of Mus musculus with 10 samples.

Results

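Neurotrophins are small secreted growth factors that decide which sympathetic and sensory neurons survive and how they branch. They bind receptor tyrosine kinases of the Trk family: brain-derived neurotrophic factor (gene Bdnf) binds TrkB (Ntrk2), and neurotrophin 3 (Ntf3) binds TrkC (Ntrk3). Neurotrophins, and with high affinity their uncleaved precursors, also bind the p75 receptor (Ngfr), which acts with Trk receptors and, together with sortilin (Sort1), as a receptor for the precursors. The genes of TrkB and TrkC make full-length receptors with a kinase domain and truncated receptors without one, and in human neuroblastoma, a tumour of the sympathetic lineage, expression of the Trk receptors has been linked to how the tumour behaves. The 6 genes Ntrk2, Ntrk3, Ngfr, Sort1, Bdnf and Ntf3 are 6 of 36161 gene names on the array and were followed through every probe that carries their name, 12 of its 55681 distinct probes: 4 for Ntrk3, 3 for Ntrk2, 2 for Sort1 and 1 each for Ngfr, Bdnf and Ntf3.

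The probes were read in neuroblastomas of 10 untreated transgenic mice, 1 array and 1 mouse per tumour. In 5 of them the genotype was ALK+/-, MYCN+/- with ALK, a receptor tyrosine kinase, in its F1174L mutant form, on a C57BL/6 x 129X1/SvJ background (ALK/MYCN). In the other 5 it was MYCN+/- alone, on 129X1/SvJ (MYCN), so all 10 tumours carry the MYCN transgene. Every difference below may stem from mutant ALK or from the mouse background, and the design cannot tell them apart. The promoters of the transgenes and the ages of the mice are not given in the sources used here. Tumour RNA was labelled with Cy3 and hybridised together with Cy5-labelled Universal Mouse Reference RNA, a pool from 11 cell lines, so that values below are log2 (tumour / reference) unless called an intensity. The comparison asks which transcripts differ between the ALK/MYCN and the MYCN tumours, which differ in both mutant ALK and mouse background.

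In the tumour channel 53.8% to 58.7% of the probe spots of an array read well above background and none was saturated, and precision is set by the number of arrays. The 10 sympathetic markers checked, among them Th and Dbh, were above background in all 10 tumours. The adrenal cortex markers stood apart in ALK/MYCN 3, with a mean of 4.55 against at most 0.19 in the other tumours, and the skeletal muscle markers in MYCN 2, with a mean of 4.37, and in MYCN 1, with 2.60. Results were recomputed without ALK/MYCN 3, MYCN 1 and MYCN 2 together, chosen after these values were seen, and without ALK/MYCN 3, MYCN 2 and MYCN 5 together, a set carried over from an earlier analysis of these data; none of the marker lists used here sets MYCN 5 apart. Markers of Schwann cells and crest glia were higher in ALK/MYCN tumours, and several markers of vessels and macrophages lower; their values are given beside the results below.

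All 12 probes passed the filter on dim probes. Bdnf, Ntf3 and Ngfr rose in ALK/MYCN tumours, the 2 probes for the truncated form of Ntrk3 fell, and the other 7 probes, among them all for Ntrk2 and Sort1 and those for the kinase form of Ntrk3, did not pass (limma, Benjamini-Hochberg adjusted p of 0.05 over 30857 probes). Thus 3 of 12 probes were higher and 2 lower. Over all kept probes 24.9% passed, 13.7% higher and 11.2% lower; several of the 12 read the same gene. The median difference was -0.02 over the 12 probes and 3e-04 over all kept probes. Groups without overlap were seen in 3 of the 12 probes, against 18.9% of all kept probes. The balance of directions over the array depended on scaling: of 7684 calls, 54.9% were higher, against 77.9% with median centring of the arrays and 91.5% with spike-in centring, which moved the median of all probes to 0.22.

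The Trk receptor probes differ in which transcript they read, and the results turn on this. The array design assigns 2 probes of Ntrk3 to the variant with a kinase domain (NM_008746) and the other 2 to the truncated variant (NM_182809). Of the sequences below, the first ends in the stop codon of the truncated reading frame, in capitals. The next lies near the 3′ end of the kinase coding sequence and has no counterpart in the truncated transcript. Sequences are those of the array files, 5′ to 3′, with positions on build mm9.
Ntrk3 truncated, A_55_P2006808, chr7:85447515-85447574, minus strand: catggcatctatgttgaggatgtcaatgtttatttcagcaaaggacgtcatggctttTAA
Ntrk3 kinase, A_66_P118329, chr7:85337455-85337514, minus strand: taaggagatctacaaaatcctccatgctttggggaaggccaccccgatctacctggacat

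The other kinase probe of Ntrk3, A_55_P2056533 at chr7:85392044-85392103, reads the activation loop of the kinase, a stretch that is much alike among Trk receptors; cross-hybridisation between their transcripts was not tested. The truncated form of Ntrk3 has a further probe, A_52_P500274, at chr7:85445908-85445967. Ntrk2 has 1 probe at the 3′ end of the full-length variant (NM_001025074; A_51_P393454, chr13:59230936-59230995), 1 at the 3′ end of the truncated variant (NM_008745; A_65_P04961, chr13:59038046-59038105) and 1 that both variants share. The shared probe covers the part that encodes the membrane-spanning segment, upstream of the point where the transcripts part, and is shown since it reads the gene whatever the receptor form.
Ntrk2 shared, A_55_P2006792, chr13:58979563-58979622, plus strand: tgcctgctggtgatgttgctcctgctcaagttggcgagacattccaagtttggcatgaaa

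All 12 probes kept their symbol when matched by accession to RefSeq names of assembly GRCm38.p6.

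**Figure D1:**
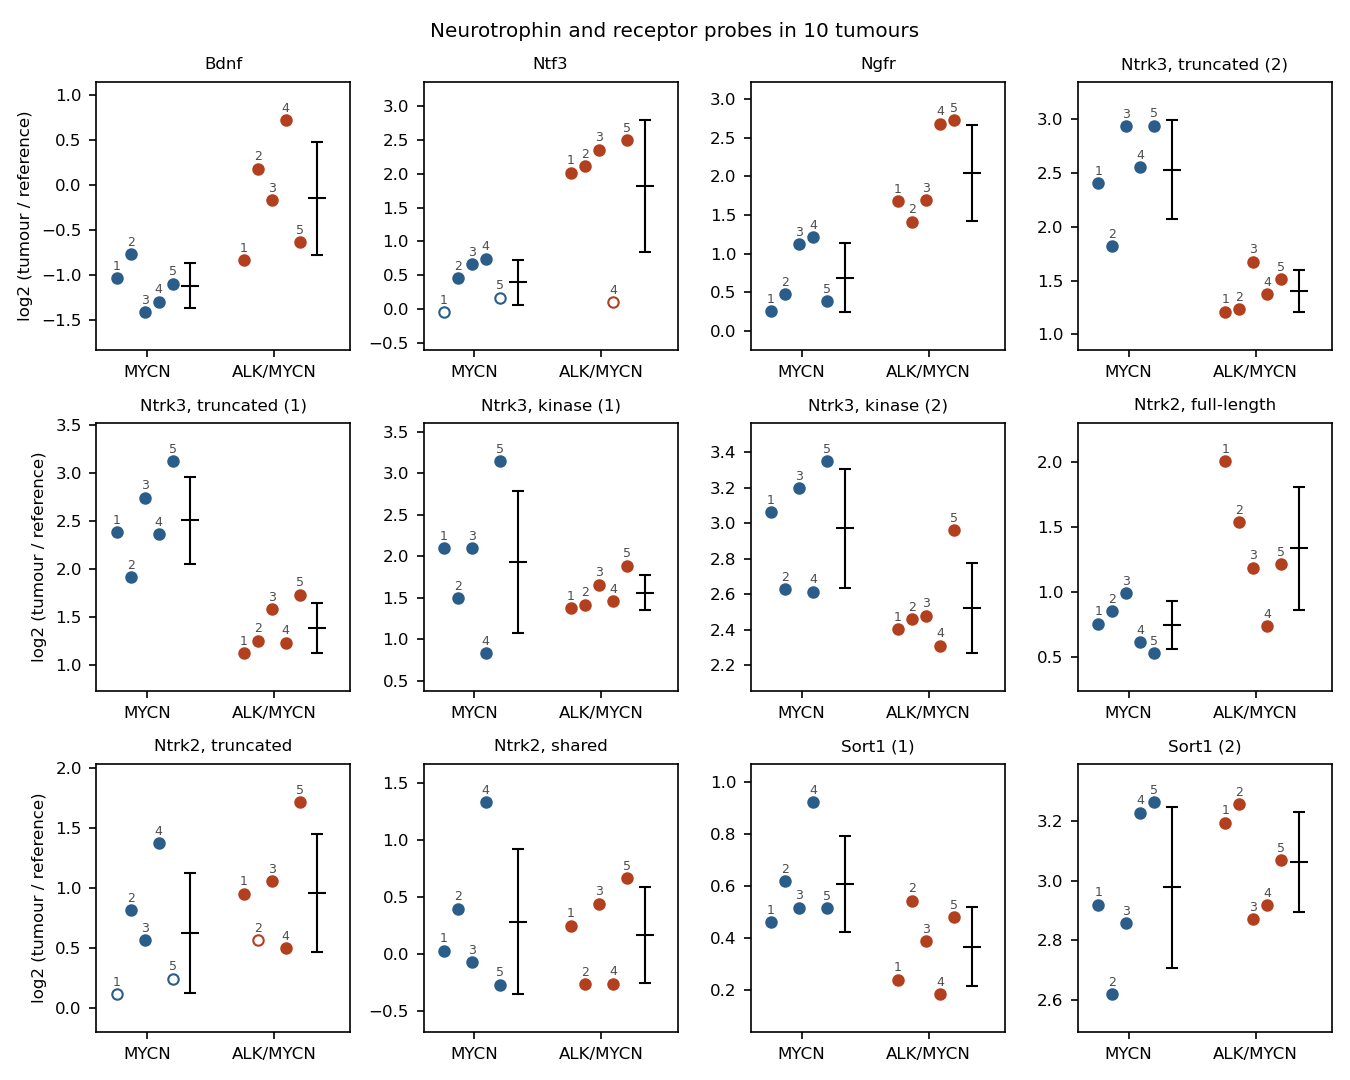
Log2 ratio of tumour over reference for the 12 probes (y axis, own scale in each panel) in 5 MYCN and 5 ALK/MYCN tumours; points are tumours with their replicate numbers, open points are tumours whose signal was not well above background, and bars show the mean ± SD. The groups do not overlap for Ngfr and for the 2 truncated Ntrk3 probes, and ALK/MYCN 4 lies apart from the other ALK/MYCN tumours for Ntf3.

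Of the ligands, Bdnf and Ntf3 were both higher in ALK/MYCN tumours. Bdnf (A_55_P2036303, chr2:109566961-109567020, a probe shared by several Bdnf transcripts) gave -0.83, 0.18, -0.17, 0.72 and -0.64 in ALK/MYCN 1 to 5. In MYCN 1 to 5 it gave -1.03, -0.77, -1.41, -1.29 and -1.09. The groups overlapped, since ALK/MYCN 1 lay below MYCN 2, and the MYCN tumours were the more alike.

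The mean was -0.15 ± 0.63 with and -1.12 ± 0.25 without mutant ALK (SD, n = 5 each), a rise of 0.97 ± 0.27 (SE, limma adjusted p = 0.0259), or 1.96-fold. Its signal was well above background in both channels on all 10 arrays, so that the reference holds Bdnf transcript too and the negative values are levels below that pool. In these bulk samples fewer cells that express a gene and less RNA per cell cannot be told apart. Of the 3 slides, the first carried a single tumour per group, slide 2 carried 3 with mutant ALK and 1 without, and slide 3 the reverse, so each value within a slide rests on a single tumour in at least 1 group. The rise was 1.21, 1.20 and 0.45 within slides 1, 2 and 3. With slide as a fixed block it did not pass (0.92, limma adjusted p = 0.0828), nor without ALK/MYCN 2, MYCN 3 or MYCN 4 (limma adjusted p = 0.0565, 0.0588 and 0.0537).

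Ntf3 (A_55_P2021565, chr6:126051431-126051490) gave 2.02, 2.12, 2.36, 0.10 and 2.50 in ALK/MYCN 1 to 5 and -0.05, 0.45, 0.66, 0.74 and 0.17 in MYCN 1 to 5. In 4 of the 5 ALK/MYCN tumours the ligand of TrkC was thus above every MYCN tumour, while ALK/MYCN 4 lay among the MYCN tumours. ALK/MYCN 4, MYCN 1 and MYCN 5 were not well above background.

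The difference was 1.42 ± 0.41 (SE, limma adjusted p = 0.0303), between means of 1.82 ± 0.98 and 0.39 ± 0.33 (SD, n = 5 each). The reference was not above background for this probe on any array, so the ratio is set against a floor and its size is uncertain; in the authors' processed signals the difference was 2.66 and did not pass (limma adjusted p = 0.130). The call was also lost with slide as a fixed block (adjusted p = 0.0564), although the difference was 2.16, 0.75 and 2.07 within slides 1, 2 and 3, and on removal of ALK/MYCN 1, 2, 3 or 5 or MYCN 1, 2 or 5 (limma adjusted p between 0.0516 and 0.0733). Without ALK/MYCN 3, MYCN 2 and MYCN 5 together, the rises of Ntf3 and Bdnf were 1.23 and 1.10 and missed the threshold (limma adjusted p = 0.166 and 0.0795). Without ALK/MYCN 3, MYCN 1 and MYCN 2 together they were 1.16 and 1.12 (limma adjusted p = 0.179 and 0.0737).

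The p75 receptor gene Ngfr rose in ALK/MYCN tumours. Its probe (A_52_P236448, chr11:95430211-95430270) is printed 10 times on each array. It gave 1.68, 1.41, 1.69, 2.68 and 2.73 in ALK/MYCN 1 to 5, and 0.25, 0.48, 1.13, 1.21 and 0.39 in MYCN 1 to 5. Every ALK/MYCN tumour lay above every MYCN tumour, and ALK/MYCN 4 and ALK/MYCN 5 lay well above the other ALK/MYCN tumours.

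The means were 2.04 ± 0.62 and 0.69 ± 0.44 (SD, n = 5 each), a rise of 1.35 ± 0.30 (SE, limma adjusted p = 0.0110), or 2.54-fold. The spots of the probe within an array had an SD of 0.09 to 0.15, which is well below the spread between tumours. The rise was 1.16, 0.80 and 2.06 within slides 1, 2 and 3. Of 29 alternative settings 27 kept the call, with differences from 1.15 to 1.88 over all of them. It was lost without ALK/MYCN 3, MYCN 2 and MYCN 5 together (1.26, limma adjusted p = 0.0689) and with MYCN 1 left out in place of MYCN 5 (1.22, adjusted p = 0.0681).

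Ngfr is also expressed by Schwann cells and crest-derived glia. Of 6 markers of these cells, 4 were measured and 3 rose: Sox10 by 1.16, Foxd3 by 1.67 and Fabp7 by 2.71 (limma adjusted p = 0.00108, 6.59e-04 and 9.70e-04), while S100b differed by 0.17 (adjusted p = 0.649). Erbb3 and Cdh19 did not pass the filter on dim probes. Foxd3 was well above background on all 5 ALK/MYCN arrays but on only 2 MYCN arrays, and Fabp7 and S100b on 5 and 4. Foxd3 thus met the filter only through the ALK/MYCN tumours, and the size of its rise is uncertain. Of the 4 measured markers only Sox10 was well above background on all 10 arrays, so the mean of the 4 below also rests on dim signals. Among all genes read by their brightest kept probe, 14% were higher and 12% lower. The mean of the 4 measured markers ran from 1.59 to 2.52 in ALK/MYCN and from 0.11 to 0.90 in MYCN tumours, again without overlap. The highest mean was that of ALK/MYCN 5, which was also highest for Ngfr, and the lowest of the ALK/MYCN tumours was that of ALK/MYCN 4, which was next highest for Ngfr. The part of these cells in the Ngfr, Bdnf and Ntf3 results was not tested.

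Ntrk3, the receptor for neurotrophin 3, fell in its truncated form. The probe that ends in the stop codon of the truncated frame gave 1.21, 1.24, 1.67, 1.38 and 1.51 in ALK/MYCN 1 to 5 and 2.40, 1.82, 2.93, 2.55 and 2.94 in MYCN 1 to 5. The other truncated probe gave 1.12, 1.25, 1.58, 1.23 and 1.73, and 2.38, 1.91, 2.74, 2.36 and 3.12. With each probe all 5 ALK/MYCN tumours lay below all 5 MYCN tumours, of which MYCN 2 was the lowest.

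The first of these probes fell by 1.13 ± 0.20 and the other by 1.12 ± 0.21 (SE, limma adjusted p = 0.00394 and 0.00479), that is 2.18-fold lower for each. Within slides 1, 2 and 3 the differences were -1.17, -1.13 and -1.05, and -1.14, -1.05 and -0.86. The 2 probes read different stretches of one transcript, so they are not separate evidence on the samples. Each kept its call in 25 of 26 alternative settings; in the authors' processed signals they stood at -0.83 and -1.11 and missed the threshold (limma adjusted p = 0.187 and 0.0971). The reference was not above background for either probe on any array.

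The probes for the kinase form of Ntrk3 did not pass. The probe near the 3′ end of the coding sequence gave 2.40, 2.46, 2.48, 2.31 and 2.96 in ALK/MYCN 1 to 5 and 3.06, 2.63, 3.20, 2.62 and 3.35 in MYCN 1 to 5. Here ALK/MYCN 5 lay among the MYCN tumours and the other ALK/MYCN tumours below all of them. The difference was -0.45 ± 0.17 (SE, limma adjusted p = 0.0828), with a 95% interval from -0.85 to -0.05 before adjustment. In this setting a fall of the size of the truncated probes lies outside that interval. The difference passed without ALK/MYCN 5 (-0.56, limma adjusted p = 0.0415), after scaling between arrays (-0.87, adjusted p = 0.00824) and as the mean over the 4 probes of the gene (-0.77, adjusted p = 0.0258). It stood at -0.19 with spike-in centring and -0.21 in the authors' processed signals. The reference channel of this probe read 7.93 as a log2 intensity in MYCN 5, against at most 7.45 on the other arrays. In the tumour channel alone the difference was -0.67 (limma adjusted p = 0.119), against -1.24 and -1.26 for the truncated probes.

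The activation loop probe gave 1.37, 1.41, 1.66, 1.46 and 1.88 in ALK/MYCN 1 to 5 and 2.10, 1.49, 2.09, 0.83 and 3.15 in MYCN 1 to 5, a difference of -0.37 ± 0.35 (SE, limma adjusted p = 0.468; 95% interval from -1.18 to 0.43). The MYCN tumours were widely spread on it. In MYCN 4 the reference channel of that spot read 7.41 as a log2 intensity, against at most 6.48 on the other arrays, so the low ratio of MYCN 4 goes with a high reference reading. The difference was -0.65 without MYCN 4, -0.07 without MYCN 5 and -0.65 in the tumour channel alone, none of which passed (limma adjusted p = 0.132, 0.868 and 0.0906).

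**Figure D2:**
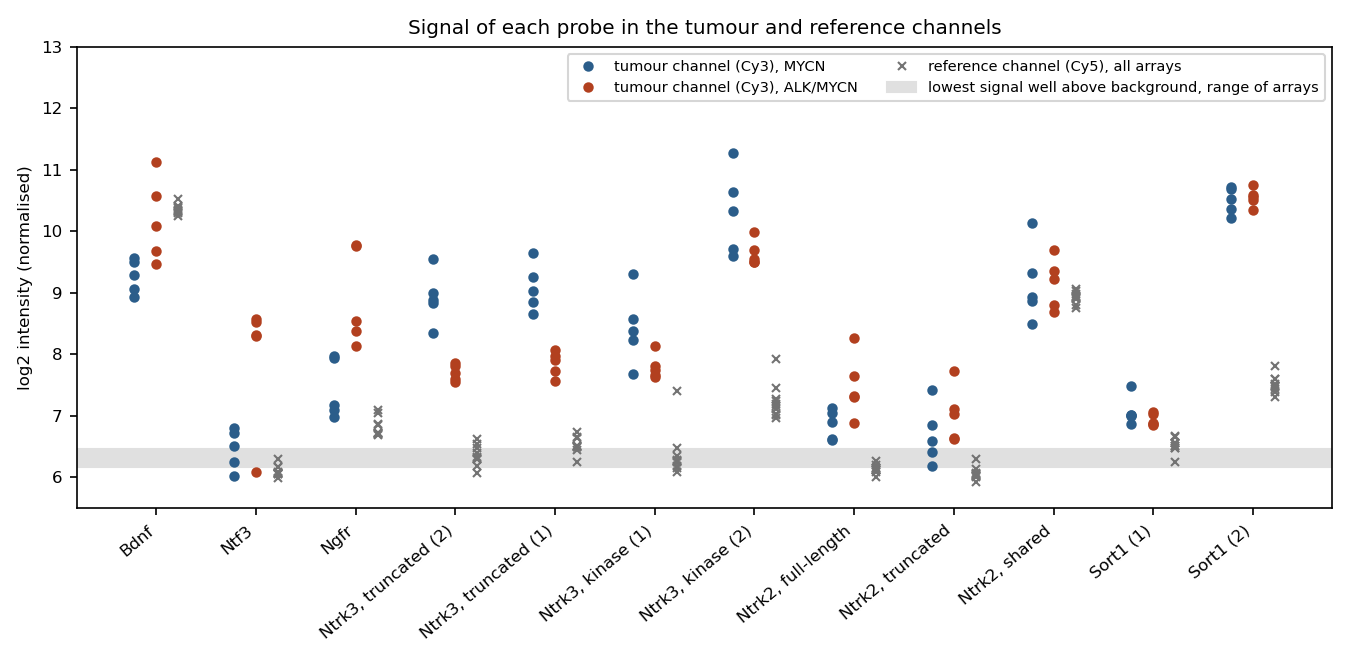
Normalised log2 intensity (y axis) of each of the 12 probes in the tumour channel of 5 MYCN and 5 ALK/MYCN tumours and in the reference channel of all 10 arrays (crosses); the band is the lowest signal well above background, which ran from 6.16 to 6.46 over the arrays. Heights of different probes cannot be compared. Within a probe, Bdnf lies near or below the reference except in ALK/MYCN 4, which lies above it. The Ntf3 and truncated Ntrk3 probes are read against a reference at the band. For full-length and truncated Ntrk2 and Sort1 (1) the reference was also not well above background on any array, and for the activation loop probe of Ntrk3 it was on 1.

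Whether the truncated and kinase forms of Ntrk3 differed in their change was tested within each tumour, as the difference between 2 probes of the gene, over all 10 pairs of probes of Ntrk3, Ntrk2 and Sort1. These pairs were taken up after the values of the single probes had been seen. Against the kinase probe near the 3′ end, the truncated probe with the stop codon stood at -1.12 ± 0.25 with and -0.44 ± 0.30 without mutant ALK (SD, n = 5 each), a difference of -0.68 (exact permutation p = 0.0159, two-sided, adjusted p = 0.0397 over 10 pairs). The other truncated probe differed from the same kinase probe by a further -0.67 in ALK/MYCN tumours (exact permutation p = 0.00794, the smallest the 252 assignments allow, adjusted p = 0.0397). The truncated signal was thus lower relative to the kinase signal in ALK/MYCN than in MYCN tumours.

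Against the activation loop probe the shifts were -0.75 and -0.75, with exact permutation p adjusted over the 10 pairs of 0.0794 for the stop codon probe and 0.0397 for the other. MYCN 4 stood highest in both, at 1.72 and 1.53, and without it the shifts were -0.47 and -0.51 (adjusted p = 0.111 and 0.0397). Between probes of the same form the means of the groups differed by -0.003 for the truncated pair and -0.07 for the kinase pair, but the kinase pair ran from 0.20 in MYCN 5 to 1.78 in MYCN 4, so these 2 probes did not rank the MYCN tumours alike. These calls are close to what 10 tumours can show at best. The 3 that passed kept their sign in all 19 alternative settings, but they did not pass in the authors' processed signals (adjusted p between 0.238 and 0.278), after scaling between arrays (adjusted p = 0.0529 to 0.0794), with ALK/MYCN 3, MYCN 1 and MYCN 2 all left out (adjusted p = 0.0714), or without ALK/MYCN 1, 2, 4 or 5, and for the first of them also without MYCN 1, 3 or 4 (exact permutation p adjusted between 0.0529 and 0.0794).

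**Figure D3:**
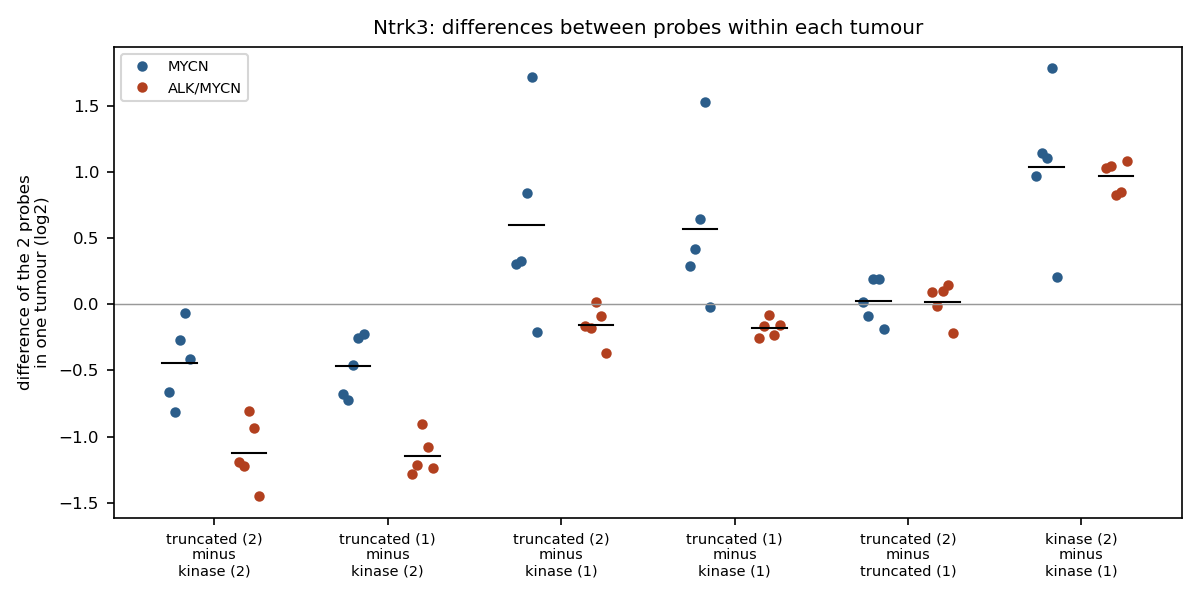
Difference of the log2 ratios of 2 Ntrk3 probes in one tumour (y axis) for the 6 pairs of probes, in 5 MYCN and 5 ALK/MYCN tumours with the mean of each group as a line; (1) and (2) number the probes of a form, truncated (2) being the stop codon probe and kinase (2) the probe near the 3′ end. In the 4 pairs of a truncated and a kinase probe the ALK/MYCN means are lower by 0.67 to 0.75, and in the 2 pairs of one form the means of the groups differ by less than 0.1.

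Pericytes and smooth muscle of vessels, endothelium and macrophages were among the cell types whose markers moved in the same direction as truncated Ntrk3. Of 6 markers each, 4 of pericytes and smooth muscle, 4 of endothelium and 5 of macrophages fell, and none rose in limma (0 at an unadjusted p of 0.05). Among all genes read by their brightest kept probe, 12% were lower and 14% higher. The mean of the pericyte and smooth muscle list ran from -1.05 to -0.14 in ALK/MYCN and from -0.31 to 1.01 in MYCN tumours, and overlapped, as did endothelium (0.42 to 1.20 and 1.08 to 1.93). The macrophage mean did not overlap: it lay between 0.20 and 0.79 with mutant ALK and between 0.84 and 1.83 without. Of 6 fibroblast markers none passed in limma (1 was lower at an unadjusted p of 0.05), with a median of -1.51 and list means from -4.40 to -1.96 and from -4.30 to 0.72. MYCN 1, a single tumour named after its values were seen, had the lowest fibroblast mean of the MYCN tumours, at -4.30. It was also the lowest MYCN tumour for pericytes and smooth muscle (-0.31), endothelium (1.08) and macrophages (0.84). The part of these cell types in the Ntrk3 result was not tested.

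Ntrk2, the receptor for brain-derived neurotrophic factor, did not pass with any of its 3 probes, and the probes did not share a direction. The full-length probe, printed 10 times per array, gave 2.01, 1.53, 1.18, 0.73 and 1.21 in ALK/MYCN 1 to 5 and 0.75, 0.85, 0.99, 0.61 and 0.53 in MYCN 1 to 5. Of the ALK/MYCN tumours 4 lay above every MYCN tumour and ALK/MYCN 4 among them. The difference was 0.59 ± 0.21 (SE, limma adjusted p = 0.0603; 95% interval from 0.11 to 1.06 before adjustment), and it passed without ALK/MYCN 4 (0.74, limma adjusted p = 0.0190), with median or spike-in centring (0.67 and 0.80, adjusted p = 0.0491 and 0.0313) and with array weights (0.57, adjusted p = 0.0486). In the authors' processed signals it was 1.05 and did not pass. The reference was not above background for the full-length probe on any array, so the size of its difference is uncertain.

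The shared probe, bright in both channels, gave 0.25, -0.26, 0.44, -0.26 and 0.67 in ALK/MYCN and 0.03, 0.40, -0.07, 1.33 and -0.27 in MYCN tumours 1 to 5. The groups overlapped throughout, with MYCN 4 highest of all. The difference was -0.12 ± 0.30 (SE, limma adjusted p = 0.810; 95% interval from -0.81 to 0.58), and its sign turned with median or spike-in centring. The truncated probe, which was above background on 4 ALK/MYCN and 3 MYCN arrays, differed by 0.33 ± 0.28 (SE, limma adjusted p = 0.414). Its reference was not above background on any array, so the size of its ratios is uncertain too.

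In single tumours the truncated and the shared probe followed each other: MYCN 4 was the highest MYCN tumour and ALK/MYCN 5 the highest ALK/MYCN tumour on both. The truncated probe stood 0.45 higher relative to the shared probe in ALK/MYCN tumours (0.79 ± 0.17 against 0.34 ± 0.26, SD, n = 5 each; exact permutation p = 0.0159, adjusted p = 0.0397 over 10 pairs). That call was lost in 12 of 19 alternative settings, among them median centring and no background correction (exact permutation p adjusted 0.106 and 0.0794) and the removal of ALK/MYCN 1, 2, 4 or 5 or MYCN 1 or 4 (0.0595 to 0.0992). The full-length probe did not differ from the truncated one beyond the spread between tumours in its shift (0.25, exact permutation p = 0.516, adjusted p = 0.645).

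Sort1, the sortilin gene, did not pass with either of its 2 probes. The probe at chr3:108164349-108164408 (A_52_P590396) lay between 2.87 and 3.26 in ALK/MYCN and between 2.62 and 3.26 in MYCN tumours, so the groups covered nearly the same range. The difference was 0.08 ± 0.13 (SE, limma adjusted p = 0.684; 95% interval from -0.23 to 0.39). The probe across an exon junction between chr3:108157150 and chr3:108159198 (A_51_P517145) differed by -0.24 ± 0.11 (SE, limma adjusted p = 0.126), with MYCN 4 highest at 0.92. After scaling between arrays both were lower, at -0.36 and -0.31 (limma adjusted p = 0.0449 and 0.0497). For the exon junction probe the reference was not above background on any array.

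**Figure D4:**
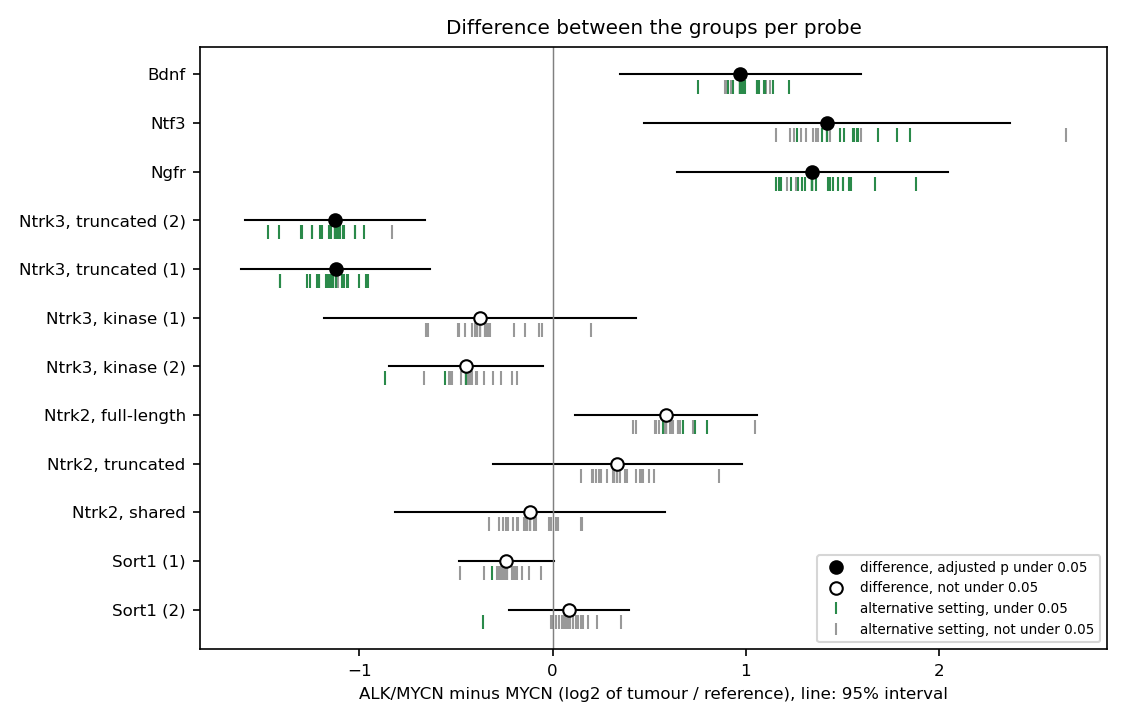
Difference between ALK/MYCN and MYCN tumours in log2 ratio (x axis) for each of the 12 probes, with its 95% interval before adjustment (line); filled points passed an adjusted p of 0.05, and the ticks under each line are the alternative settings, green where they passed. The differences of Ngfr, Bdnf, Ntf3 and truncated Ntrk3 kept their sign in every setting shown, and those of shared Ntrk2 and the second Sort1 probe lay on both sides of 0.

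The members did not rank the tumours alike. ALK/MYCN 4 was the highest tumour for Bdnf and next to the highest for Ngfr, and the lowest ALK/MYCN tumour for Ntf3, for full-length and truncated Ntrk2 and for Ntrk3 on the probe near the 3′ end. ALK/MYCN 5 was the highest tumour for Ngfr and Ntf3 and truncated Ntrk2. MYCN 5 was the highest tumour on every probe of Ntrk3, though by little over MYCN 3 on the stop codon probe (2.94 and 2.93).

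The genes whose log2 ratios followed each member most closely over the 10 tumours were sought among 13450 named genes; these values describe the ranking, carry no test, and include the difference between the groups. For Ngfr they were the potassium channel gene Kcnq3 (Pearson r = 0.979, Spearman rho = 0.952), the protease inhibitor gene Serpine2 (r = 0.972, rho = 0.939) and the reticulon gene Rtn3 (r = 0.966, rho = 0.976). With each group centred on its own mean these were 0.936, 0.918 and 0.916. For Bdnf they were Baalc, Dgke, which encodes a diacylglycerol kinase, and the cyclin-dependent kinase gene Cdk14 (r = 0.935, 0.929 and 0.919, rho = 0.952, 0.952 and 0.745). With the groups centred r was 0.888, 0.828 and 0.818.

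For Ntf3 the closest were Oxnad1, Fam5b and the ubiquitin-conjugating enzyme gene Ube2ql1 (r = 0.952, 0.946 and 0.946). For Ntrk3 on the kinase probe near the 3′ end they were Rpap1, Entpd8 and the tRNA adenosine deaminase gene Adat2 (r = 0.915, 0.886 and 0.879, rho = 0.903, 0.83 and 0.915). For Ntrk2 on the shared probe they were Lsm10, Tmem195 and Daf2 (r = 0.914, 0.897 and 0.889, rho = 0.782, 0.867 and 0.721). For Sort1 on the brighter probe they were the ETS factor gene Etv3, Pgbd1 and the mitochondrial carrier gene Slc25a44 (r = 0.904, 0.851 and 0.849, rho = 0.867, 0.842 and 0.915).

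Of 14 further receptors, ligands and binding partners of the pathway, each read by its brightest kept probe, 10 were measured, 5 rose and none fell in limma (0 lower at an unadjusted p of 0.05), with a median difference of 0.24. Over all genes read in this way 26% passed, 14% higher and 12% lower. Sorcs1, a receptor of the sortilin family, rose by 1.86 ± 0.20 (SE, limma adjusted p = 4.81e-04), the largest difference of the list, and its relative Sorcs2 by 0.70 ± 0.23 (limma adjusted p = 0.0494), a call lost in 13 of 27 alternative settings, among them slide as a block and the removal of ALK/MYCN 1, 3 or 5 or MYCN 1, 3, 4 or 5. Not all 10 tumours gave a value for Sorcs2, since outlier spots were left out. Nradd, whose product resembles p75 and carries a death domain, rose by 0.68 ± 0.14 (limma adjusted p = 0.00627).

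Maged1 and Ngfrap1, which encode proteins that bind the intracellular part of p75, rose by 0.71 ± 0.08 and 0.37 ± 0.08 (SE, limma adjusted p = 4.67e-04 and 0.0104); Ngfrap1 did not pass after scaling between arrays (adjusted p = 0.110). Ntf5, Sorcs3, Lingo1 and Rtn4r did not pass the filter on dim probes.

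Of 18 adaptors and relays that couple Trk receptors to Ras and other pathways, 17 were measured, 6 rose and none fell in limma (1 was lower at an unadjusted p of 0.05), with a median of 0.11. The shares over all genes were 14% higher and 12% lower. The docking and adaptor genes Shc1, Shc2, Frs2 and Grb2 rose by 1.04 ± 0.22, 0.46 ± 0.13, 0.36 ± 0.08 and 0.38 ± 0.10 (SE, limma adjusted p = 0.00883, 0.0252, 0.00851 and 0.0207), and the Ras exchange factor gene Sos1 by 0.41 ± 0.13 (adjusted p = 0.0404). Shc3, counted among the 6, was well above background on all 5 ALK/MYCN arrays and on no MYCN array. It thus passed the filter on dim probes only through the ALK/MYCN tumours, and its call (limma adjusted p = 0.0153) is set against a floor. The size of the difference of Shc3 is therefore uncertain. The difference of Shc2 turned to -0.18 after scaling between arrays, and Shc2 passed in 18 of 28 alternative settings, not without ALK/MYCN 2 or 5 or MYCN 1, 2 or 4. Sos1 passed in 10 of 28, Grb2 in 25, not without ALK/MYCN 5, and Shc1 and Frs2 in all 28. These adaptors serve many receptor tyrosine kinases. Without ALK/MYCN 3, MYCN 2 and MYCN 5 together 2 of the 17 passed, and without ALK/MYCN 3, MYCN 1 and MYCN 2 together 3.

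A list of 17 genes held proteases and parts of protease complexes linked to the cleavage of neurotrophin precursors or p75. Of these 13 were measured and 2 rose, with a median of -0.01. They were Pcsk7, a proprotein convertase gene, by 0.29 ± 0.08, and Psenen, a gene of the gamma-secretase complex, by 0.43 ± 0.10 (SE, limma adjusted p = 0.0291 and 0.0117). These 2 of 13 are near the share over all genes, of which 14% were higher. Pcsk7 did not pass in 11 of 28 alternative settings, among them scaling between arrays, slide as a fixed block and the removal of ALK/MYCN 2, 4 or 5 or MYCN 2 or 3. Furin, the convertase best known for precursor cleavage, differed by -0.01 ± 0.19 (limma adjusted p = 0.975). Without either set of 3 tumours none of the 13 passed in limma (3 were higher and 1 lower at an unadjusted p of 0.05 in each).

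Of 16 genes that neurotrophins are known to induce in neurons, 13 were measured, 3 rose and 1 fell, with a median of 0.24. Here too the shares over all genes were 14% higher and 12% lower. The neuropeptide precursor gene Vgf rose by 0.64 ± 0.12, the nuclear receptor gene Nr4a1 by 2.50 ± 0.82 and the growth cone gene Gap43 by 0.24 ± 0.08 (SE, limma adjusted p = 0.00535, 0.0492 and 0.0453), and Plaur, the urokinase receptor gene, fell by 0.84 ± 0.18 (adjusted p = 0.00768). Fos and Egr1, at 1.79 ± 0.62 and 1.51 ± 0.72, missed the threshold (limma adjusted p = 0.0578 and 0.150). Vgf and Plaur did not pass after scaling between arrays (0.19 and -0.48, adjusted p = 0.426 and 0.133), and Vgf stood at 2.14 in the tumour channel alone. Nr4a1 passed in 10 and Gap43 in 6 of 28 alternative settings, and Gap43 turned its sign after scaling between arrays and in the authors' processed signals. Without either set of 3 tumours 1 rose and 1 fell. These genes also respond to other signals.

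**Figure D5:**
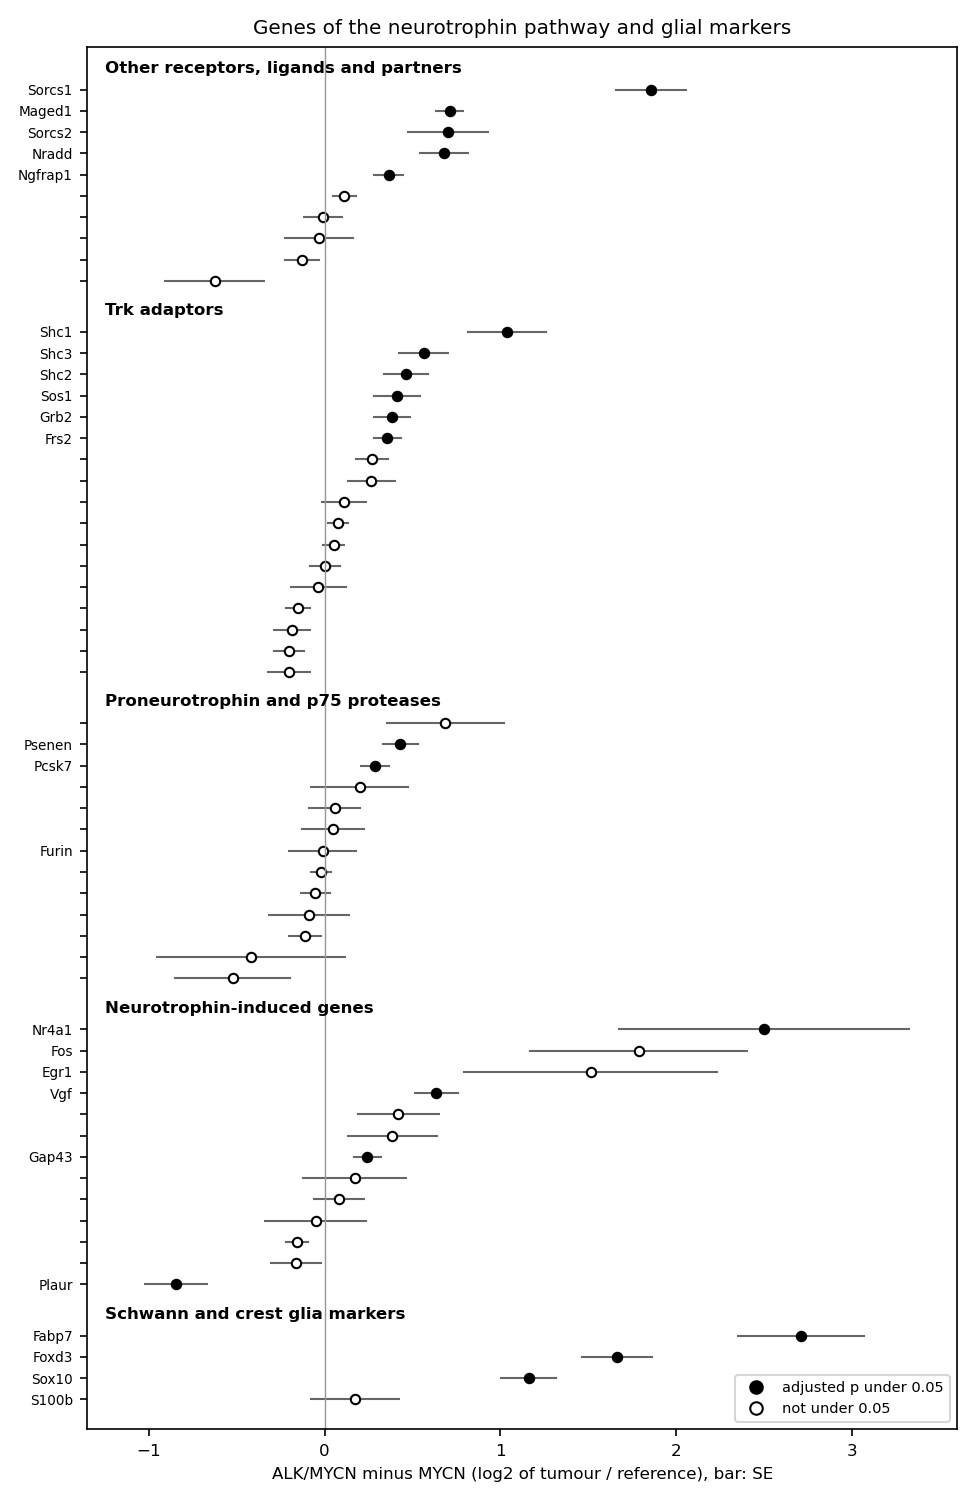
Difference between ALK/MYCN and MYCN tumours in log2 ratio (x axis) with its SE for the measured genes of 4 lists of the neurotrophin pathway and of the glial marker list, each by its brightest kept probe; filled points passed an adjusted p of 0.05, and rows with a name are those the text describes. In the 4 pathway lists, with 10, 17, 13 and 13 measured genes, 16 genes were higher and 1, Plaur, lower. The glial markers Sox10, Foxd3 and Fabp7 were also higher, Foxd3 with a signal well above background in only 2 MYCN tumours. Among all genes read by their brightest kept probe, 14% were higher and 12% lower. Shc3, 1 of the 16, was above background only in ALK/MYCN tumours.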

How the data were processed

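Per the file headers, the scanner software was Agilent Feature Extraction 10.7.3.1 and probe positions are on mm9; each deposited file holds mean signal and background intensities of both dyes. The authors' deposited value table holds log2 ratios, which matched log2 of the processed Cy3 over Cy5 intensity within 5.01e-04 (column medians -0.186 to -0.035); it served as an alternative. Tumour RNA was in Cy3 on every array, per the labels' protocols, so dye and sample cannot be told apart in a single ratio, while the comparison of groups is not affected by a constant dye effect.

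Background correction used normexp with an offset of 50 on mean signal and local median background, and ratios were normalised within arrays by loess, with control spots at weight 0. Outlier spots, 177 to 345 per array, were left out. Spots of a probe were averaged, and a probe was kept if 5 or more of the 10 arrays read it well above background in Cy3. Groups were compared by lmFit and eBayes of limma 3.58.1 (R 4.3.3), two-sided, with Benjamini-Hochberg adjustment over 30857 probes and no covariate; the 95% intervals use 8 degrees of freedom. Pairs of probes were compared by an exact permutation test. In simulated data with 30731 probes and independent noise, 75, 54 and 71 probes were changed by 0.5, 1 and 2 on the log2 scale. The procedure recovered 30.7%, 81.5% and 95.8% of them, with 6 false among 141 calls. Far fewer probes were changed there than were called in the tumours, so these shares need not hold for the real comparison.

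All probes of the 6 genes are reported; of the other lists the called genes and a few members chosen after their values were seen (Furin, Fos, Egr1, S100b) are named. Some genes are not reported here, and the lists are counted without them. The members and lists were chosen with earlier results of these data known. Alternatives covered background, centring, scaling, filters, probe summaries, variance models, blocks and removal of tumours.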

Additional observations from a re-analysis of the deposited data

Results flagged for a closer look

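Single tumours were set against the others of their group for each of the 12 probes, in 24 groups of 5, and 2 stood apart by Dixon's 95% criterion; chance alone gives about 1 in 20 groups. For Ntf3, ALK/MYCN 4 was at 0.10 while the nearest other ALK/MYCN tumour was at 2.02, a gap of 0.800 of the group's range. For the Ntrk3 kinase probe near the 3′ end, ALK/MYCN 5 was at 2.96 and the nearest other ALK/MYCN tumour at 2.48, a gap of 0.742 of the range.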

How the results depend on the processing

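Ngfr, Bdnf, Ntf3 and the truncated Ntrk3 probes kept their direction under every alternative run. Over all probes, 4215 were higher and 3469 lower; with median centring 1713 were lower, with spike-in centring 11090 were higher and 1029 lower, and without ALK/MYCN 3, MYCN 2 and MYCN 5 together 1945 were lower; without ALK/MYCN 3, MYCN 1 and MYCN 2 together, chosen after seeing the data, 2516 were higher. Leaving out single tumours gave 3098 to 3938 higher and 2229 to 3207 lower, the fewest without ALK/MYCN 5, with 1 to 4 of the 12 probes higher (1 without ALK/MYCN 2) and 2 to 3 lower. Of the 12 probes, 1 was higher with slide as a fixed block and 0 without either set of 3 tumours together (limma; 2 at an unadjusted p of 0.05 in each). The 2 lower probes became 0 in the value table, 0 of 5 measured in both channels, 0 of 6 with 1 probe per gene (limma; 1 at an unadjusted p of 0.05 in each), 5 after scaling between arrays and 1 of 6 with the mean over the probes of a gene. Signs turned among probes that had not passed. Ntrk2 on the shared probe moved to 0.03 with median centring, 0.15 with spike-in centring, 0.016 with array weights and 0.27 as the mean over its gene's probes, and lay between -0.25 and 0.14 when single tumours were left out, the highest without MYCN 4. Ntrk3 on the activation loop probe was at 0.20 in the value table. Sort1 (A_52_P590396) was at -0.36 after scaling, -0.078 as the mean over probes, -0.0068 without ALK/MYCN 3, MYCN 1 and MYCN 2 together and between -0.0054 (without MYCN 2) and 0.16 without single tumours. The truncated Ntrk3 pair differed by 0.071 without background correction, 0.28 in the value table, 0.015 with Cy3 alone and -0.056 to 0.056 without single tumours, the kinase pair by 0.013 with median or spike-in centring and -0.28 to 0.11 without single tumours, the highest without MYCN 4, and the Sort1 pair by 0.049 after scaling. The cause of these moves was not tested. Replicate numbers do not pair the tumours (correlations of same-numbered tumours from -0.10 to 0.30); with the replicate block 3340 probes were higher and 2651 lower, Ntf3 did not pass (adjusted p = 0.064) and Ntrk3 on the kinase probe near the 3′ end did (adjusted p = 0.031), with no other change of call among the 12. Signal over background limits Ntf3 and truncated Ntrk2, which were not above background in 3 tumours each.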
